A study of Homo sapiens with 30 samples.

Results

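The genes described here are 53 genes of DNA replication and S phase, named in a list and found by symbol in a table of 26801 genes. All 53 were found, and all 53 passed the filter on low values (at least 1 FPKM in at least 3 libraries), which 12086 genes of the table passed. They were measured by RNA sequencing in the established lung adenocarcinoma cell line A549, in 30 libraries that form 10 groups of 3. Each of 5 backgrounds had 3 libraries exposed to a magnetic field (EX, labelled 2 H) and 3 libraries without the field (NE). The backgrounds were RSRP1 knockout with the labels iR and D3 (iR_KOA_D3), knockout with iR (iR_KOA), knockout with neither (KOA), wild type with iR and D3 (iR_WTA_D3) and wild type with iR (iR_WTA). Both genotypes share the A549 line, and all 4 wild-type groups carry iR, so iR was compared in the knockout alone. What iR and D3 stand for, which part of RSRP1 was removed, whether the knockout is a single clone and whether the 3 libraries of a group came from separate cultures is stated in none of the sources used here. The p-values therefore measure the spread between these libraries, which may be technical.

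DNA is copied once per cell cycle from origins that are licensed beforehand: the origin recognition complex, CDC6 and CDT1 load the ring-shaped MCM helicase onto DNA. At the start of S phase CDC45 and the GINS complex join the helicase, polymerase alpha with its primase lays down primers, and polymerases delta and epsilon extend them on the sliding clamp PCNA, which the RFC complex loads. Many of these genes are targets of the E2F transcription factors, which are released when cyclin-dependent kinases with cyclin D and cyclin E phosphorylate the RB protein, so their mRNAs are high in dividing cells and low in resting ones.

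The knockout and the cells were checked first. RSRP1 was at 2.09 to 7.95 FPKM in the 18 knockout libraries and at 37.4 to 63.4 FPKM in the 12 wild-type libraries, with no overlap. Within the knockout its group means were 2.16 and 2.43 FPKM in exposed and unexposed KOA, and 6.15 to 7.68 FPKM in the groups with iR. Keratins KRT8 and KRT18, ALDH1A1 and the NRF2 targets typical of A549 were high in every library, while EPCAM (0.402 to 1.85 FPKM) and KRT19 (median 0.132 FPKM, up to 22.8 FPKM) were low. CDKN2A, which A549 lacks, was listed at 0 in 29 of the 30 libraries. Of 17 markers of other cells, 12 stayed under 0.1 FPKM in every library, PTPRC, COL1A2, DCN, PECAM1 and VWF among them. The other 5 were CD68 (23.7 to 39.6 FPKM), CD14 (1.05 to 17.9 FPKM), COL1A1 (0.443 to 3.71 FPKM), CDH5 (up to 1.29 FPKM) and LUM (up to 0.648 FPKM). The summed level of 6 leukocyte markers was 30.0 to 45.6 FPKM in exposed and 29.97 to 46.8 FPKM in unexposed libraries. That of 7 fibroblast markers was 0.749 to 4.41 FPKM in exposed and 0.463 to 2.47 FPKM in unexposed libraries, and that of 4 endothelial markers was 0.0253 to 0.851 FPKM in exposed and 0.0263 to 1.32 FPKM in unexposed libraries. The recovered depth was 34620432 to 38939336 reads per library. The least covered of the 53 genes was CCNE2, with 33 to 714 reads, and the most covered was PCNA, with 8026 to 18279 reads.

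Most of the 53 genes were lower in libraries exposed to the magnetic field, in every background. In iR_KOA_D3 cells 41 of the 53 fell and 2 rose, where 27.8% of all tested genes fell and 17.3% rose (limma on log2(FPKM + 1), adjusted p below 0.05 over all 12086 genes). In iR_KOA cells 41 fell and 1 rose, where 22.3% of all tested genes fell and 13.1% rose. In KOA cells 43 fell and 1 rose, where 22.7% of all tested genes fell and 18.8% rose. In iR_WTA_D3 cells 41 fell and 2 rose, where 26.5% of all tested genes fell and 15.3% rose. In iR_WTA cells 42 fell and none rose, where 17.2% of all tested genes fell and 11.4% rose. That last count was lower without the first exposed iR_WTA library, when 27 fell. The share of all tested genes that fell in that run is not given, so the drop may not be particular to the 53.

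The falls were modest in size. The median difference of the 53 genes, exposed minus unexposed, was -0.31 in iR_KOA_D3, -0.26 in iR_KOA, -0.29 in KOA, -0.26 in iR_WTA_D3 and -0.23 in iR_WTA on the log2(FPKM + 1) scale, on which changes of weakly expressed genes come out too small. The median over all tested genes was -0.04, -0.05, -0.02, -0.05 and -0.04 in the same order. Under median-of-ratios scaling all tested genes split into 1976 lower and 1862 higher in iR_KOA, with 37 of the 53 lower, where the deposited FPKM gave 2694 and 1578. In iR_WTA_D3 they split into 2478 and 2283, with 34 of the 53 lower, where the deposited FPKM gave 3203 and 1852. Averaged over the 5 backgrounds, 50 of the 53 fell, 2 rose and ORC6 did not pass, with a median of -0.27, where 42.6% of all tested genes fell and 25.2% rose with a median of -0.04. In bulk RNA, fewer cells in S phase and less of these transcripts per cell cannot be told apart.

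The same genes recurred. Of the 53, 30 (56.6%) fell in all 5 backgrounds, against 7.87% of all tested genes, and 39 fell in at least 4, against 13.9%. For 35 of the 53 all 3 exposed libraries lay below all 3 unexposed libraries in each of the 5 backgrounds, against 9.61% of all tested genes. ORC6 and CDC6 fell in none of them, and ORC6, CDC6 and SLBP were the 3 genes that rose in at least 1. The backgrounds share no libraries, and the differences of the 53 genes correlated between them with Pearson's r of 0.51 to 0.88 over the 10 pairs, against 0.66 to 0.81 over all tested genes. These are correlations across genes, which are not independent replicates.

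**Figure D1:**
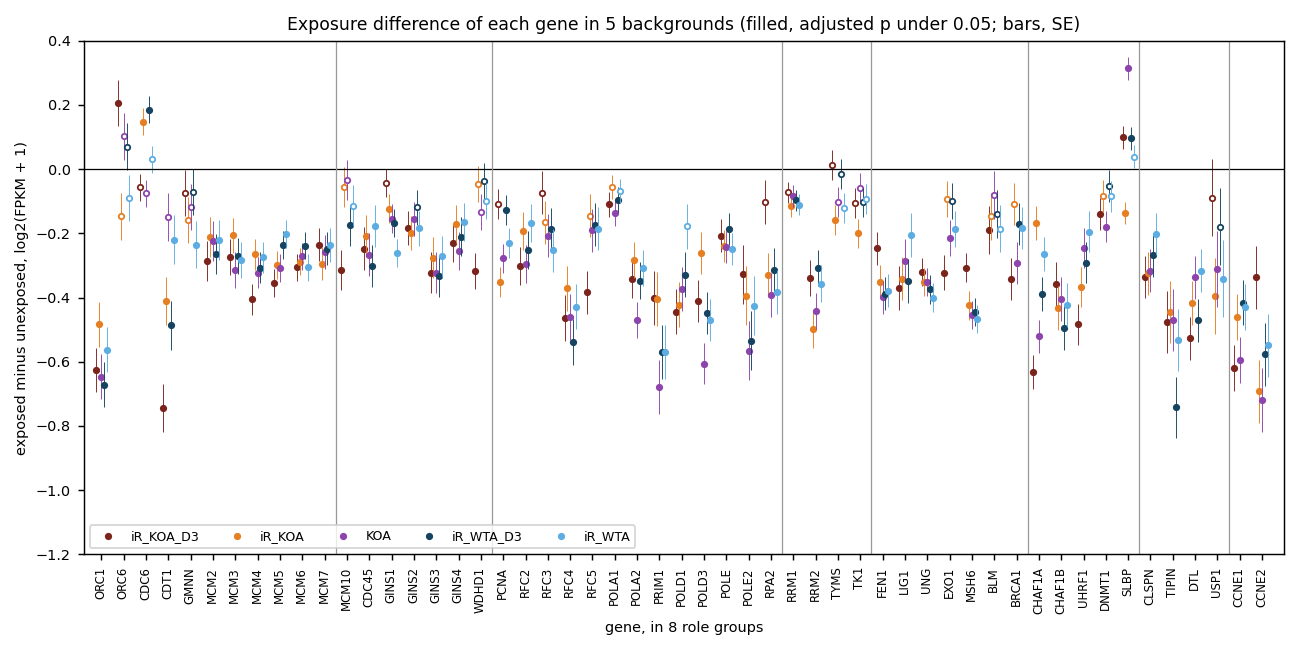
Exposed minus unexposed difference in log2(FPKM + 1) on the vertical axis for each of the 53 genes, grouped by role along the horizontal axis, with 1 point per background and its standard error. Filled points passed the adjusted threshold of 0.05. Most points lie below 0, with ORC1, PRIM1, TIPIN, CCNE1 and CCNE2 among the lowest on average. ORC6, CDC6, SLBP and TYMS have points above 0.

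The sum of the 53 genes' FPKM shows the shift in each library, though PCNA alone holds a large part of it. It was 598.3, 581 and 601 FPKM in exposed iR_KOA_D3 libraries, against 708, 674 and 689.6 FPKM in unexposed ones. In iR_KOA it was 1190.4, 1221 and 1303 FPKM in exposed libraries, against 1514, 1524 and 1492 FPKM in unexposed ones. In iR_WTA it was 1418, 1495 and 1539 FPKM in exposed libraries, against 1739.6, 1749 and 1774 FPKM in unexposed ones. The exposed and unexposed libraries did not overlap in these backgrounds. The sums were lowest in the D3 knockout libraries and highest in the unexposed iR wild type. The share of FPKM from mitochondrially encoded genes, which moves every other gene's FPKM the opposite way, was 20.1% to 30.8% over the libraries.

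**Figure D2:**
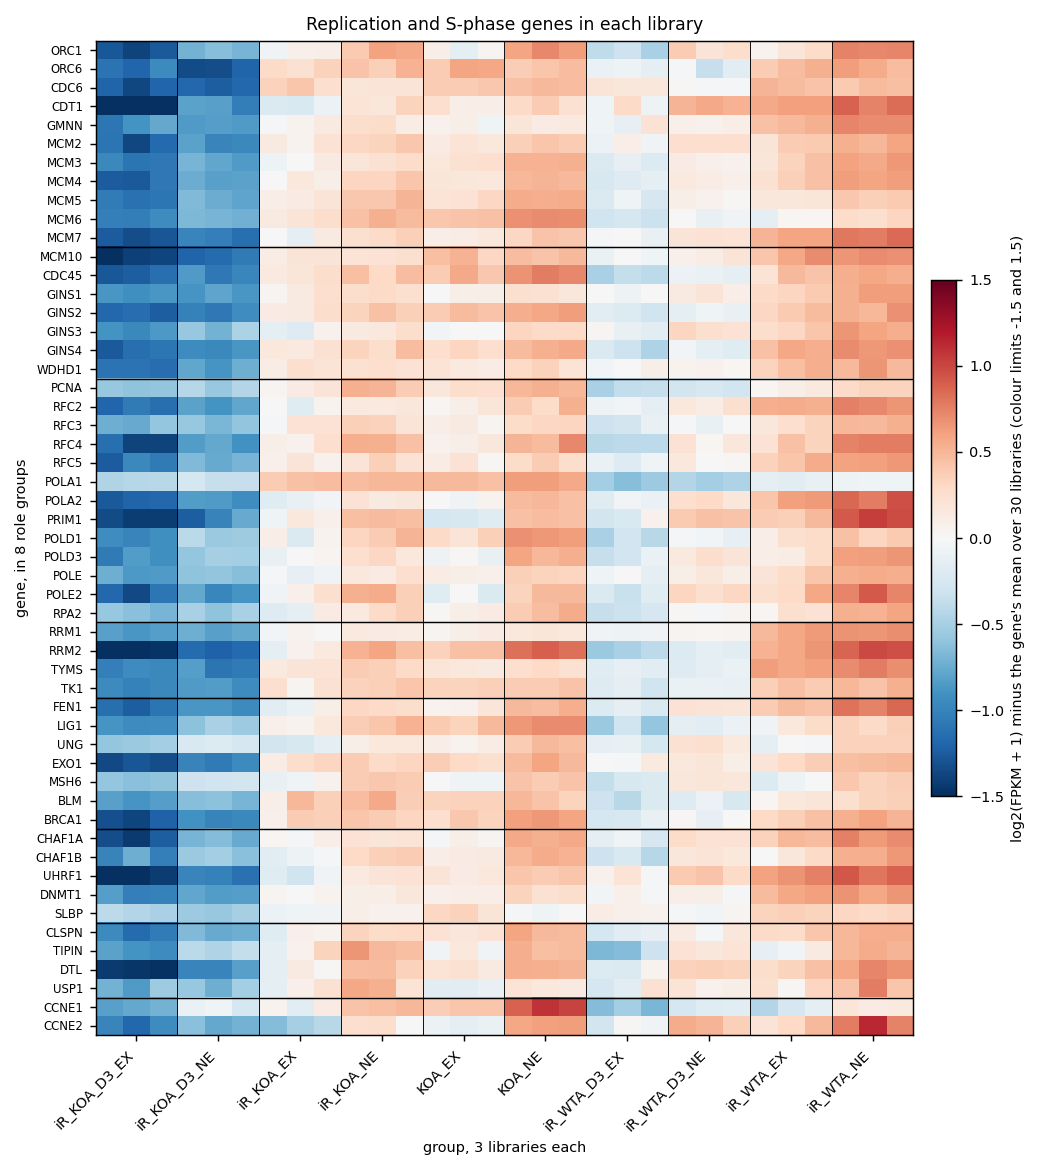
Each row is 1 of the 53 genes, in 8 role groups divided by lines, and each column is 1 of the 30 libraries, 3 per group with the exposed group left of the unexposed one. Colour is log2(FPKM + 1) minus the gene's mean over the 30 libraries, and the blue blocks of low values are the iR_KOA_D3 groups.

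Because many replication genes are E2F targets, the sequence just before the 53 genes' starts was searched for the letters of the E2F element. The list names replication and S-phase genes and was chosen with earlier results of these data known. A high share of matches is therefore a property of the list and not a result of these data. The promoter sequences used, at RefSeq starts (GRCh38.p14), covered 47 of the 53 genes, with the first listed start taken where a gene had several. The 250 bases upstream were searched on both strands for TTTCCCGC, TTTCGCGC, TTTGCCGC and TTTGGCGC, which can overlap each other. They occurred in 14 of the 47 genes (29.8%), against 4.60% of 9885 promoters of tested genes and 2.79% of all 27305 promoters. The CCAAT box (CCAAT, both strands) occurred in 25 of the 47 (53.2%), against 35.2% of the tested genes' promoters. The CHR element of mitotic genes (TTTGAA, both strands) occurred in 1 of the 47 (2.13%), against 8.27% of the tested genes' promoters. Windows of 60 bases are shown for 6 of the 14 genes, those with the largest D3-by-genotype differences described below. The 6 were thus picked from these data, and their choice says nothing about the letters. Each window runs 5′ to 3′ on the gene's strand, with the E2F letters on either strand in capitals.
DTL, chr1:212035688-212035747, + strand: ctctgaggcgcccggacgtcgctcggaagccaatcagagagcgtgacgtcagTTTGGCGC
MCM6, chr2:135876496-135876555, − strand: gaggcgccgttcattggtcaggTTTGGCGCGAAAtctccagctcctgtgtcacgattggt
CDT1, chr16:88803728-88803787, + strand: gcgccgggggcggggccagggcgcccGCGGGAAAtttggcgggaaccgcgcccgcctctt
MCM7, chr7:100101398-100101457, − strand: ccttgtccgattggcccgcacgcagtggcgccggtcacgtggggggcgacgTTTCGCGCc
UHRF1, chr19:4909441-4909500, + strand: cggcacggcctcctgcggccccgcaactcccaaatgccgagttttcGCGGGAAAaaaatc
GINS2, chr16:85688955-85689014, − strand: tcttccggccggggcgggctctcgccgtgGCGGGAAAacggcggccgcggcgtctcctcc
MCM6 had 4 matches and MCM7 had 2 in the searched 250 bases, and the windows show 2 overlapping matches of MCM6 and 1 of MCM7. The median of the average exposure differences was -0.26 in the 14 genes with them and -0.24 in the 33 without. A match in these letters is a description of the sequence and not a measured binding site.

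Origin licensing genes fell in the average over backgrounds for 9 of 11 members, with differences of -0.60 to 0.05. ORC1, the largest subunit of the origin recognition complex, had the largest average fall of the 53 genes on the log2(FPKM + 1) scale, while with a pseudocount of 0.01 CCNE2 fell more (by 0.96, against 0.72 for ORC1). ORC1 was at 1.74, 1.53 and 1.76 FPKM in exposed iR_KOA_D3 libraries, against 3.04, 3.25 and 3.07 FPKM in unexposed ones. In iR_WTA_D3 it was at 4.05, 4.34 and 3.70 FPKM in exposed libraries, against 7.60, 6.53 and 6.90 FPKM in unexposed ones. In iR_WTA it was at 5.82, 6.48 and 7.00 FPKM in exposed libraries, against 10.1, 9.87 and 9.93 FPKM in unexposed ones. No exposed library reached an unexposed library of its own background, in these and in the iR_KOA and KOA backgrounds. The average fall was 0.60 (SE 0.0311, adjusted p = 1.16e-14).

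CDT1, which brings the MCM ring to origins, fell by 0.74 in iR_KOA_D3, 0.41 in iR_KOA, 0.49 in iR_WTA_D3 and 0.22 in iR_WTA, and its difference of -0.15 in KOA did not pass (adjusted p = 0.119). In iR_KOA_D3 its levels were 2.13, 2.28 and 2.26 FPKM in exposed libraries, against 4.69, 4.66 and 3.87 FPKM in unexposed ones. The iR_WTA call was not kept under median-of-ratios scaling or quantile normalization (adjusted p = 0.0552 and 0.0604), and leaving out 1 library gave 0.0536 to 0.114 in 5 of 6 cases. All 6 subunits of the MCM ring, MCM2 to MCM7, fell in each of the 5 backgrounds. MCM7 was at 96.9, 103 and 103 FPKM in exposed iR_WTA libraries, against 118, 116 and 123 FPKM in unexposed ones. For MCM2 the values were 11.7, 9.56 and 11.1 FPKM in exposed iR_KOA_D3 libraries, against 14.5, 12.7 and 12.9 FPKM in unexposed ones. The MCM genes' average differences lay close together, between -0.32 for MCM4 and -0.24 for MCM2. GMNN, the CDT1 inhibitor geminin, fell by 0.13 on average and in iR_WTA alone among the single backgrounds.

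CDC6 and ORC6 stood apart from the other licensing genes. CDC6, the ATPase that helps load the MCM ring, was at 17.0, 16.7 and 16.8 FPKM in exposed iR_WTA_D3 libraries, against 14.9, 14.5 and 14.6 FPKM in unexposed ones, a rise of 0.19 (SE 0.0419, adjusted p = 0.000898). In iR_KOA it was at 19.0, 20.0 and 17.8 FPKM in exposed libraries, against 16.8, 17.1 and 17.0 FPKM in unexposed ones, a rise of 0.15 (adjusted p = 0.00821) that did not pass without the second exposed library (adjusted p = 0.0707) or with only the compared groups in the fit (adjusted p = 0.1002). In KOA and iR_KOA_D3 its differences were -0.07 and -0.06, and neither passed. The average rise was 0.05 (adjusted p = 0.0317) and did not pass when any 1 of 6 libraries was left out (adjusted p = 0.0548 to 0.0631). ORC6, the smallest subunit of the origin recognition complex, was at 5.38, 5.04 and 6.07 FPKM in exposed iR_KOA_D3 libraries, against 4.43, 4.46 and 4.99 FPKM in unexposed ones, a rise of 0.21 (adjusted p = 0.0221). In the other 4 backgrounds ORC6 differed by -0.15 to 0.10 and did not pass.

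All 7 helicase activation genes fell in the average, by 0.13 to 0.31. GINS3, a GINS subunit, fell in each background and was at 11.6, 12.0 and 13.0 FPKM in exposed iR_WTA libraries, against 15.6, 14.8 and 14.4 FPKM in unexposed ones. Its average fall was 0.31 (SE 0.0284, adjusted p = 7.58e-10). CDC45, the helicase cofactor, was at 9.91, 11.3 and 10.1 FPKM in exposed KOA libraries, against 12.3, 13.2 and 12.8 FPKM in unexposed ones. Its average fall was 0.24 (SE 0.0296, adjusted p = 9.59e-08). In single backgrounds the CDC45 fall in iR_WTA was the least firm, at 0.18 (adjusted p = 0.0455), and it was lost under both smaller pseudocounts, no filter, each rescaling, a fit of the compared groups alone, and without the first exposed or any 1 unexposed library (adjusted p = 0.0599 to 0.337). The fall in iR_KOA (adjusted p = 0.0166) was also lost under several alternatives, among them rescaling without mitochondrially encoded genes (adjusted p = 0.0634). GINS4 fell in all 5 backgrounds as well, GINS1 and GINS2 in 4, MCM10 in 2 and WDHD1 in 1.

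The polymerase, clamp and single-strand binding group fell without exception in the average, for all 13 members and by 0.09 to 0.52. PRIM1, the catalytic primase subunit that makes the RNA primers, fell most on this scale, while with a pseudocount of 0.01 POLE2 fell by 0.59 and PRIM1 by 0.56. PRIM1 was at 11.9, 12.2 and 12.8 FPKM in exposed KOA libraries, against 20.2, 20.5 and 20.1 FPKM in unexposed ones. In iR_WTA it was at 19.3, 18.9 and 20.8 FPKM in exposed libraries, against 28.5, 30.9 and 29.6 FPKM in unexposed ones. In iR_KOA_D3 it was at 5.17, 4.82 and 4.81 FPKM in exposed libraries, against 5.64, 6.80 and 8.26 FPKM in unexposed ones, a wider spread than in the other unexposed groups. Exposed and unexposed libraries did not overlap in any background, and the average fall was 0.52 (SE 0.0373, adjusted p = 5.02e-12).

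RFC4, a subunit of the clamp loader, was at 10.8, 11.0 and 10.9 FPKM in exposed iR_WTA_D3 libraries, against 17.2, 15.1 and 16.7 FPKM in unexposed ones. Its average fall was 0.45 (SE 0.0316, adjusted p = 3.46e-12). The other small clamp-loader subunits in the list fell less on average, by 0.24 for RFC2, 0.18 for RFC3 and 0.22 for RFC5. POLE2 and POLD3, accessory subunits of polymerases epsilon and delta, fell by 0.45 and 0.44 on average. PCNA, the clamp and the most abundant of the 53 transcripts, averaged 267 ± 14.7 FPKM in exposed and 340.3 ± 19.3 FPKM in unexposed iR_KOA libraries (SD, n = 3 each). It fell in 4 backgrounds, and its difference of -0.11 in iR_KOA_D3 did not pass (adjusted p = 0.0552). POLA1, the catalytic subunit of polymerase alpha, changed least in this group, with an average fall of 0.09 (SE 0.0171, adjusted p = 3.5e-05).

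The 4 nucleotide supply genes fell in the average and differed among themselves. RRM2, the regulated subunit of ribonucleotide reductase, was at 45.1, 51.8 and 55.2 FPKM in exposed iR_KOA libraries, against 71.9, 75.6 and 68.3 FPKM in unexposed ones. In iR_WTA it was at 71.8, 74.7 and 79.3 FPKM in exposed libraries, against 92.0, 99.5 and 98.4 FPKM in unexposed ones. RRM2 fell in all 5 backgrounds, on average by 0.39 (SE 0.0254, adjusted p = 9.79e-13). TK1, the S-phase thymidine kinase, had a smaller average fall of 0.11 (SE 0.0207, adjusted p = 3.76e-05) and passed only in iR_KOA among the single backgrounds, with 81.4, 70.5 and 80.7 FPKM in exposed libraries, against 87.2, 88.2 and 91.8 FPKM in unexposed ones. That call did not pass with only the compared groups in the fit (adjusted p = 0.0652). TYMS, thymidylate synthase, fell by 0.08 on average and passed in iR_KOA alone, and RRM1, the large reductase subunit, fell by 0.10 on average and in 4 backgrounds.

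All 7 flap processing, ligation and repair genes fell in the average, by 0.15 to 0.42. MSH6, a subunit of the mismatch sensor, was at 25.2, 27.5 and 29.1 FPKM in exposed iR_WTA libraries, against 39.0, 37.2 and 38.0 FPKM in unexposed ones. In KOA it was at 29.0, 28.0 and 27.9 FPKM in exposed libraries, against 39.5, 38.4 and 39.5 FPKM in unexposed ones. MSH6 had the smallest adjusted p of the 53 genes for the average fall, which was 0.42 (SE 0.0199, adjusted p = 1.86e-15). UNG, the uracil-DNA glycosylase, was at 20.1, 20.4 and 21.2 FPKM in exposed iR_KOA_D3 libraries, against 25.8, 26.4 and 25.6 FPKM in unexposed ones. Its falls in the 5 backgrounds ran from 0.32 to 0.40, and the average fall was 0.36 (SE 0.0199, adjusted p = 4.05e-14). FEN1, the flap endonuclease, and LIG1, the ligase that joins Okazaki fragments, fell in all 5 backgrounds, by 0.35 and 0.31 on average. BRCA1 fell in 4 backgrounds, EXO1 in 3 and the helicase gene BLM in 1.

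In the chromatin and DNA methylation group CHAF1A, CHAF1B, UHRF1 and DNMT1 fell in the average and SLBP rose. CHAF1A and CHAF1B encode the large and middle subunits of the histone chaperone that deposits histones behind the fork. CHAF1B was at 2.77, 3.00 and 2.47 FPKM in exposed iR_WTA_D3 libraries, against 4.26, 4.35 and 4.20 FPKM in unexposed ones, and its average fall was 0.42 (SE 0.0307, adjusted p = 7.17e-12). CHAF1A was at 2.25, 2.05 and 2.48 FPKM in exposed iR_KOA_D3 libraries, against 4.07, 4.21 and 3.85 FPKM in unexposed ones, and its average fall was 0.39 (SE 0.0236, adjusted p = 1.81e-13). UHRF1, which guides the maintenance methyltransferase DNMT1 to new DNA, fell by 0.32 on average and in all 5 backgrounds, and DNMT1 fell by 0.11 on average and in 2.

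SLBP, which binds the stem-loop of histone mRNAs, moved in both directions. In KOA it was at 41.1, 42.2 and 37.6 FPKM in exposed libraries, against 32.2, 31.3 and 33.0 FPKM in unexposed ones, a rise of 0.31 (SE 0.0353, adjusted p = 8.87e-08). In iR_KOA it was at 31.0, 31.5 and 31.7 FPKM in exposed libraries, against 35.0, 34.3 and 34.4 FPKM in unexposed ones, and fell by 0.14 (adjusted p = 0.00417). In each case the exposed and unexposed libraries did not overlap. The iR_KOA fall did not pass under quantile normalization (adjusted p = 0.069), nor did the rises of 0.10 in iR_KOA_D3 and 0.10 in iR_WTA_D3 when some single libraries were left out (adjusted p up to 0.124 and 0.118).

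The 4 genes of fork protection and replication-coupled ubiquitin control fell in the average, by 0.26 to 0.53. TIPIN, a subunit of the fork protection complex, was at 1.86, 1.91 and 2.69 FPKM in exposed iR_WTA_D3 libraries, against 4.31, 4.16 and 4.27 FPKM in unexposed ones. In iR_KOA_D3 it was at 1.61, 1.46 and 1.37 FPKM in exposed libraries, against 2.45, 2.33 and 2.57 FPKM in unexposed ones, and the average fall was 0.53 (SE 0.0429, adjusted p = 5.23e-11). DTL, the substrate receptor that directs CDT1 to destruction in S phase, was at 2.98, 2.91 and 2.86 FPKM in exposed iR_KOA_D3 libraries, against 4.42, 4.43 and 5.12 FPKM in unexposed ones. It fell in all 5 backgrounds, on average by 0.41 (SE 0.0302, adjusted p = 8.03e-12). CLSPN, the checkpoint mediator claspin, fell in all 5 backgrounds by 0.20 to 0.34, and USP1, a deubiquitinase of PCNA, in 3.

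Both cyclin E genes, whose products activate the kinase CDK2 at the start of S phase, fell in all 5 backgrounds. CCNE2 was at 0.783, 0.974 and 1.10 FPKM in exposed iR_KOA libraries, against 2.32, 2.37 and 1.79 FPKM in unexposed ones. In KOA it was at 1.63, 1.53 and 1.61 FPKM in exposed libraries, against 3.18, 3.30 and 3.32 FPKM in unexposed ones. Its levels were the lowest of the 53 genes, so the average fall of 0.57 (SE 0.0440, adjusted p = 1.99e-11) is understated most by the pseudocount of 1. CCNE1 was at 14.2, 14.6 and 14.7 FPKM in exposed KOA libraries, against 20.7, 23.8 and 22.7 FPKM in unexposed ones, and its average fall was 0.50 (SE 0.0318, adjusted p = 5.2e-13).

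Differences between backgrounds in the response to exposure were few. The test of exposure by genotype in iR cells called none of the 53 genes, against 0.538% of all tested genes, and 4 of the 53 had an unadjusted p below 0.05. In iR D3 cells that test called CDC6 alone, against 2.38% of all tested genes, with an interaction of -0.24 (SE 0.0592, adjusted p = 0.0251) that was lost when any 1 of 6 libraries was left out. Exposure by D3 in the wild type called none, against 1.67% of all tested genes, and 2 of the 53 had an unadjusted p below 0.05. A p above the threshold does not show that the responses were equal.

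In the knockout, exposure by iR called 4 of the 53, against 5.08% of all tested genes. SLBP had a lower response with iR (-0.45, SE 0.0499, adjusted p = 1.26e-06), and CHAF1A (0.35), POLD3 (0.34) and CDC6 (0.22) had less negative or higher ones. POLD3 was at 5.84, 6.34 and 5.69 FPKM in exposed KOA libraries, against 9.94, 9.25 and 9.55 FPKM in unexposed ones. With iR it was at 5.70, 6.28 and 6.46 FPKM in exposed libraries, against 7.64, 7.96 and 7.10 FPKM in unexposed ones. The POLD3 and CDC6 calls were each lost when any 1 of several libraries was left out (adjusted p up to 0.0703 and 0.0757).

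Exposure by D3 in the iR knockout also called 4, against 4.14% of all tested genes. CHAF1A fell further with D3 (interaction -0.46, SE 0.0746, adjusted p = 0.000615), while ORC6 (0.35), PCNA (0.24) and SLBP (0.23) had higher responses with D3. PCNA was at 165, 161 and 163 FPKM in exposed iR_KOA_D3 libraries, against 182, 165 and 180.4 FPKM in unexposed ones. The PCNA call was lost under quantile normalization (adjusted p = 0.481), and the ORC6 call under rescaling without mitochondrially encoded genes (adjusted p = 0.0811). With no filter, or with only the compared groups fitted, the PCNA and ORC6 calls were lost as well (adjusted p = 0.0668 to 0.138). Leaving out some single libraries had the same effect (adjusted p up to 0.111 for PCNA and 0.134 for ORC6). The SLBP call was lost under rescaling without mitochondrially encoded genes too (adjusted p = 0.0519). The iR_KOA groups enter both of these interactions.

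**Figure D3:**
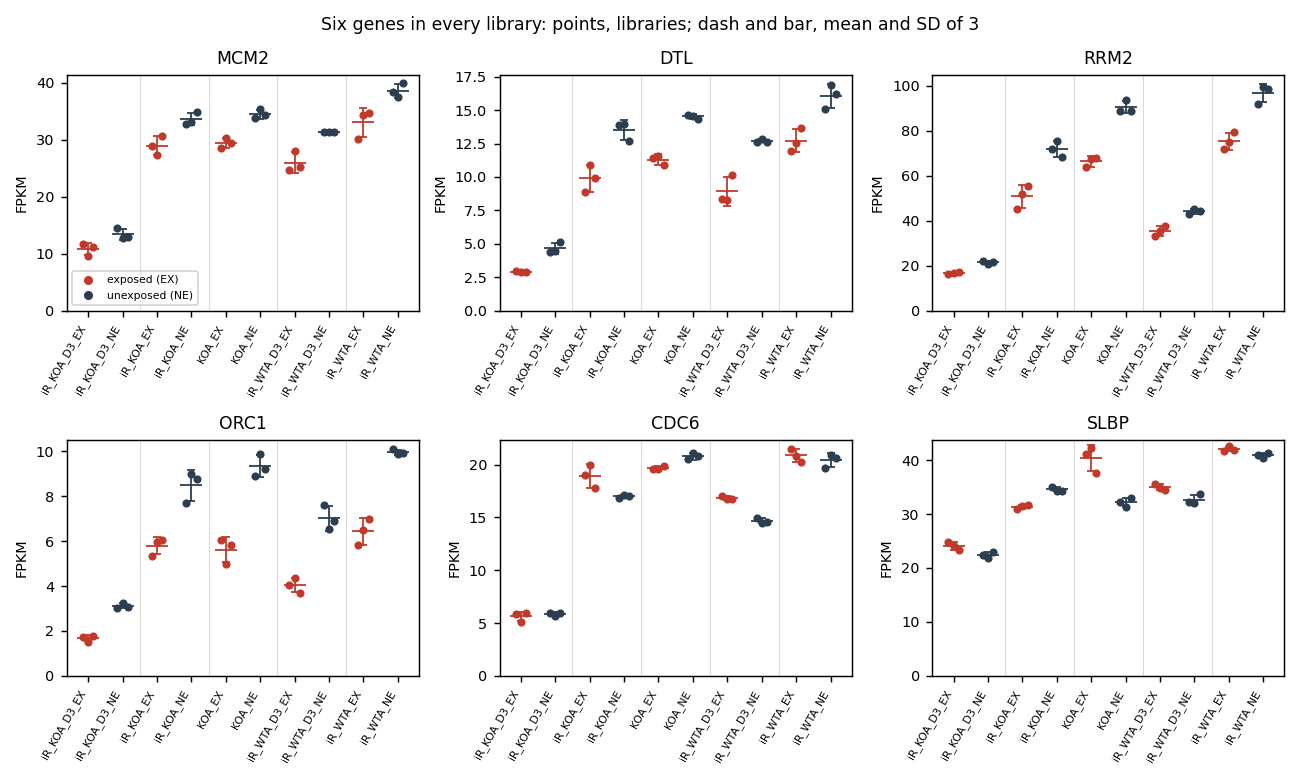
FPKM on the vertical axis in each of the 10 groups along the horizontal axis for MCM2, DTL, RRM2, ORC1, CDC6 and SLBP, with points for libraries and a dash and bar for the mean and SD of 3. Red groups are exposed and dark groups are unexposed. MCM2, DTL, RRM2 and ORC1 are lower in every exposed group than in its unexposed partner, CDC6 and SLBP are not, and the iR_KOA_D3 groups are the lowest for all 6 genes.

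All 53 genes were lower with D3, in both genotypes. In unexposed iR knockout cells D3 libraries were lower than libraries without D3 for 53 of 53 genes, where 34.5% of all tested genes fell and 19.2% rose. In unexposed iR wild-type cells D3 libraries were lower for 53 of 53 genes as well, where 26.3% of all tested genes fell and 22.3% rose. The median difference was -1.06 in the knockout and -0.49 in the wild type, against -0.06 and -0.01 over all tested genes. Under median-of-ratios scaling the split over all tested genes in the knockout was 2930 lower and 3419 higher, where the deposited FPKM gave 4170 lower and 2315 higher, and all 53 genes still fell with a median of -0.98. The median exposure differences in the same iR backgrounds, which share the unexposed libraries without D3, were -0.26 in the knockout and -0.23 in the wild type. Single genes could differ from the medians: in the wild type MSH6 fell by 0.20 with D3 and by 0.47 with exposure.

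In the knockout the largest D3 falls on the log2(FPKM + 1) scale were those of ORC6, RRM2, PRIM1 and CDC6. With a pseudocount of 0.01 the order was ORC6 (1.93), POLE2 (1.85), RRM2 (1.75) and MCM10 (1.66). ORC6 was at 4.43, 4.46 and 4.99 FPKM in D3 libraries, against 17.5, 16.6 and 18.7 FPKM without D3, a fall of 1.73 (SE 0.0723, adjusted p = 3.18e-16). RRM2 was at 21.9, 20.8 and 21.6 FPKM in D3 libraries, against 71.9, 75.6 and 68.3 FPKM without D3, a fall of 1.70 (SE 0.0567, adjusted p = 4.06e-18). CDC6 was at 5.97, 5.70 and 5.96 FPKM in D3 libraries, against 16.8, 17.1 and 17.0 FPKM without D3, a fall of 1.39. PRIM1 fell by 1.45. ORC6, which did not pass in the average exposure comparison, thus had the largest D3 fall in the knockout at both pseudocounts.

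In the wild type the largest D3 falls, at both pseudocounts, were those of RRM2, TYMS, GINS4 and ORC6. RRM2 was at 42.9, 45.1 and 44.2 FPKM in D3 libraries, against 92.0, 99.5 and 98.4 FPKM without D3, a fall of 1.12 (SE 0.0567, adjusted p = 3.24e-14). TYMS was at 57.6, 60.2 and 61.7 FPKM in D3 libraries, against 109, 113 and 108 FPKM without D3, a fall of 0.87 (adjusted p = 1.04e-13). GINS4 was at 7.87, 7.28 and 7.06 FPKM in D3 libraries, against 13.9, 13.3 and 13.7 FPKM without D3, a fall of 0.80, and ORC6 fell by 0.73. By role, the nucleotide supply genes had the largest median D3 fall in the wild type (0.75). In the knockout their median fall of 1.29 was close to the 1.28 of helicase activation, and with a pseudocount of 0.01 the order turned (1.32, against 1.49 for helicase activation). UNG had the smallest fall of the 53 genes in each (0.36 and 0.14).

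The D3 difference was itself larger in the knockout for most of the 53 genes. The test of D3 by genotype called 51 of 53, all more negative in the knockout, where 17.5% of all tested genes were called and 12.3% were more negative. The median of this interaction was -0.58 over the 53 genes and -0.05 over all tested genes. Under median-of-ratios scaling 50 of the 53 were called, and all tested genes split into 1051 more and 964 less negative, where the deposited FPKM gave 1492 and 627. CCNE1 (-0.25, adjusted p = 0.0853) and RPA2 (-0.25, adjusted p = 0.0733) did not pass. The knockout and wild-type D3 differences correlated across the 53 genes with Pearson's r of 0.58, against 0.75 over all tested genes.

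DTL gave the largest interaction on the log2(FPKM + 1) scale, while with a pseudocount of 0.01 POLE2 (-1.26) and EXO1 (-1.203) came before it. DTL was at 4.42, 4.43 and 5.12 FPKM in D3 knockout libraries, against 13.9, 14.0 and 12.7 FPKM in knockout libraries without D3. In the wild type it was at 12.6, 12.9 and 12.6 FPKM in D3 libraries, against 15.1, 16.9 and 16.2 FPKM without D3. The D3 fall was 1.36 in the knockout and 0.32 in the wild type, a difference of -1.05 (SE 0.0955, adjusted p = 1.21e-08).

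EXO1, the exonuclease of resection and mismatch repair, followed the same pattern. It was at 3.40, 3.23 and 3.56 FPKM in D3 knockout libraries, against 10.5, 9.73 and 10.0 FPKM without D3, and at 8.84, 8.97 and 8.40 FPKM in D3 wild-type libraries, against 11.0, 11.2 and 11.5 FPKM without D3. Its interaction was -1.003 (SE 0.0780, adjusted p = 7.52e-10). The interactions of ORC6, MCM2 and CDC6 were -0.999, -0.98 and -0.94. MCM2 was at 14.5, 12.7 and 12.9 FPKM in D3 knockout libraries, against 32.8, 33.2 and 34.9 FPKM without D3, and at 31.4, 31.3 and 31.3 FPKM in D3 wild-type libraries, against 38.4, 37.5 and 39.9 FPKM without D3. By role, the median interaction was most negative in origin licensing, at -0.83, and was -0.36 in the cyclin E genes. With a pseudocount of 0.01 these were -0.90 and -0.66, and the polymerase group was least negative, at -0.48.

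**Figure D4:**
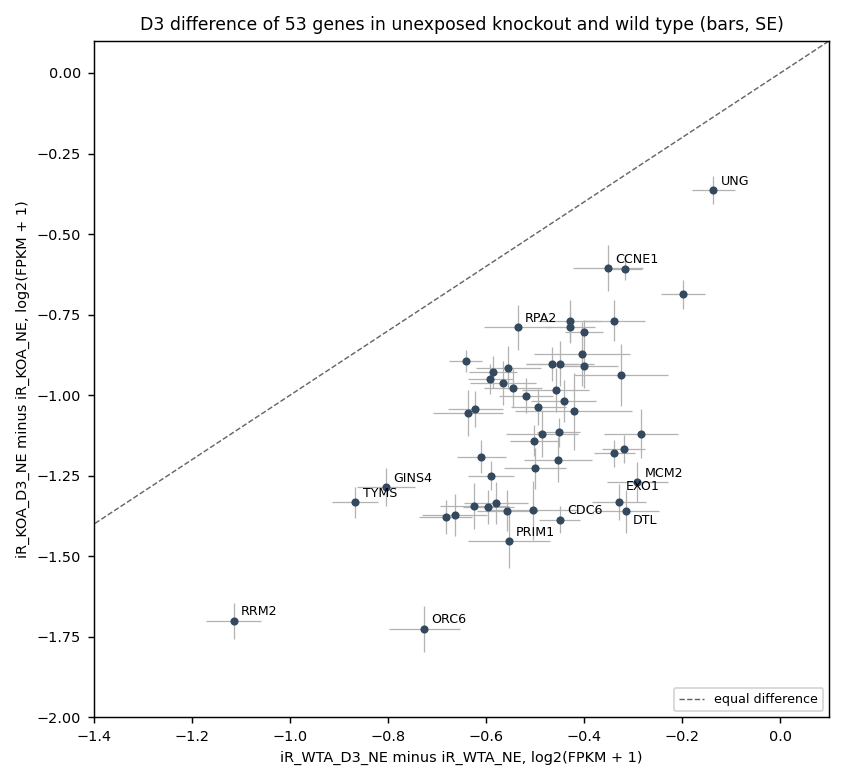
D3 difference in the unexposed iR knockout on the vertical axis against the D3 difference in the unexposed iR wild type on the horizontal axis, both in log2(FPKM + 1), for the 53 genes with bars for the standard error. All points lie below the dashed line of equal difference, with DTL, EXO1, ORC6, MCM2 and CDC6 farthest from it.

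Set against the wild type, the knockout had lower levels of most of these genes, and more so with D3. In unexposed iR cells 40 of the 53 were lower in the knockout and 4 were higher, where 37.4% of all tested genes were lower and 27.9% were higher, with a median of -0.26 for the 53 genes and -0.06 for all. In unexposed iR D3 cells 51 of the 53 were lower and 1 was higher, where 44.3% of all tested genes were lower and 24.8% were higher, with a median of -0.86 for the 53 genes and -0.11 for all. Under median-of-ratios scaling the median of all tested genes in iR D3 cells was -0.02 and that of the 53 genes -0.77, and the split over all tested genes was 4151 lower and 3781 higher, where the deposited FPKM gave 5350 and 3002. Genotype cannot be told apart here from any other difference between the knockout and wild-type cells.

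In iR cells the largest differences on the log2(FPKM + 1) scale were those of CCNE2, POLA2, UHRF1 and CDT1. CCNE2 was at 2.32, 2.37 and 1.79 FPKM in knockout libraries, against 3.75, 5.11 and 3.67 FPKM in wild-type ones, and was lower by 0.71 (SE 0.0984, adjusted p = 7.56e-07). POLA2, the second subunit of polymerase alpha, was at 7.64, 7.16 and 7.39 FPKM in knockout libraries, against 12.6, 11.7 and 13.5 FPKM in wild-type ones. It was lower by 0.69 (SE 0.0567, adjusted p = 6.55e-11). UHRF1 was at 7.79, 8.04 and 8.20 FPKM in knockout libraries, against 14.1, 12.8 and 13.6 FPKM in wild-type ones, and CDT1 at 10.4, 10.2 and 11.5 FPKM, against 17.3, 15.7 and 16.8 FPKM in the wild type. No knockout library reached a wild-type one for these 4 genes.

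The 4 genes that were higher in the iR knockout were POLA1, CCNE1, MCM6 and PCNA. POLA1 was at 5.96, 6.12 and 6.15 FPKM in knockout libraries, against 3.78, 3.85 and 3.83 FPKM in wild-type ones, a difference of 0.55, so the catalytic and second subunits of polymerase alpha differed in opposite directions. CCNE1 was higher by 0.31, while CCNE2 was lower. With D3, POLA1 was the only one of the 53 still higher in the knockout (0.15, adjusted p = 0.00129), and CCNE1 differed by 0.06 and did not pass.

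With D3 the largest differences between knockout and wild type, on the same scale, were those of CDT1, PRIM1, UHRF1 and DTL. CDT1 was at 4.69, 4.66 and 3.87 FPKM in D3 knockout libraries, against 13.2, 13.8 and 13.3 FPKM in D3 wild-type ones, and was lower by 1.42 (SE 0.0755, adjusted p = 8.84e-15). UHRF1 was at 2.98, 2.92 and 2.64 FPKM in D3 knockout libraries, against 9.40, 9.65 and 8.69 FPKM in D3 wild-type ones, and was lower by 1.41 (SE 0.0636, adjusted p = 2.71e-16). PRIM1 was lower by 1.42 and DTL by 1.28.

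The iR comparison, made in the unexposed knockout, gave smaller differences. With iR, 29 of the 53 genes fell and 1 rose, where 19.8% of all tested genes fell and 18.7% rose, and the median was -0.15 for the 53 genes and -0.00108 for all. Rescaling without mitochondrially encoded genes gave a split over all tested genes of 3273 lower and 1406 higher, where the deposited FPKM gave 2397 and 2259, and 31 of the 53 lower and 0 higher. CCNE1 was at 14.8, 15.1 and 15.6 FPKM with iR, against 20.7, 23.8 and 22.7 FPKM without iR, a fall of 0.53 (SE 0.0711, adjusted p = 2.09e-06). CHAF1A was at 8.50, 8.31 and 8.46 FPKM with iR, against 11.1, 10.9 and 11.2 FPKM without iR, a fall of 0.36 (adjusted p = 8.87e-06). CCNE2 fell by 0.44 and RRM2 by 0.33. SLBP rose by 0.10, at 35.0, 34.3 and 34.4 FPKM with iR, against 32.2, 31.3 and 33.0 FPKM without. RSRP1 itself also differed, at 7.63, 7.95 and 7.45 FPKM with iR, against 2.12, 2.70 and 2.46 FPKM without. That was a rise of 1.34 (SE 0.0587, adjusted p = 6.1e-15). The iR_KOA_NE libraries are also the libraries without D3 in the knockout D3 comparison, and the unexposed ones in the iR_KOA exposure comparison.

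Genes of related function, from lists of other replication genes, of cell cycle regulators and of mitosis, gave smaller median differences with exposure. Of 51 tested genes of other replication and checkpoint genes, 34 fell and 8 rose in the average, where 42.6% of all tested genes fell and 25.2% rose, with a median of -0.11. TOP1, the topoisomerase that relieves torsion ahead of the fork, rose by 0.46, while ATAD5, which unloads PCNA, fell by 0.45 and the histone chaperone NASP by 0.30. Of 31 tested E2F and RB regulators 16 fell and 10 rose, shares near those of all tested genes, with a median of -0.09. E2F2, an activator of these genes, fell by 0.83 and E2F8, a repressor, by 0.62, while MYC rose by 0.75 and CDKN1A, which encodes a kinase inhibitor, by 0.51. The lists were not tested against each other.

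Genes of G2 and mitosis showed a different profile across the comparisons. Of 35 such genes 25 fell and 4 rose in the average exposure comparison, where 42.6% of all tested genes fell and 25.2% rose, with a median of -0.15. ESPL1, which encodes separase, fell by 0.46, and the kinesin genes KIF11 and KIF2C by 0.40 and 0.36, while CKS2, a cofactor of cyclin-dependent kinases, rose by 0.55. With D3, 35 of 35 fell in the knockout and in the wild type, where 34.5% and 26.3% of all tested genes fell, with medians of -1.28 and -1.11, where the 53 replication genes had -1.06 and -0.49. The test of D3 by genotype called 12 of these 35 as more negative in the knockout and 1 as less negative, where 12.3% of all tested genes were more negative, against 51 and 0 of the 53. With iR in the knockout, 30 of the 35 rose and none fell, where 18.7% of all tested genes rose, with a median of 0.47, whereas the replication genes had 29 that fell and a median of -0.15.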

How the data were processed

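Per the labels' protocols, TRIzol RNA of 30 A549 libraries was selected on oligo(dT) beads and copied with random hexamers. fastp, HISAT2, HTSeq and the build GRCh38 appear in the submitters' processing notes. Annotation, strand setting and gene lengths were not stated, so overlapping genes may share reads. The authors deposited 1 FPKM value (fragments per kilobase and per mapped fragments of the library) per gene and library. Another 6 value columns, named for none of these samples, were left out. Low FPKM steps gave whole reads for all 26801 genes (tolerance 0.01), hence the depths.

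log2(FPKM + 1) of 12086 genes (at least 1 FPKM in at least 3 libraries) was fitted over 10 groups with limma 3.58.1 under R 4.3.3 (trended moderation, 20 residual degrees of freedom), tested on simulated data. That check required only that changes larger than the median exposure differences here be found. There were 17 comparisons, 6 of them interactions. P-values are two-sided, adjusted by Benjamini-Hochberg over all tested genes within a comparison, with a threshold of 0.05. "Fell" and "rose" mark what passed.

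Genes were named by rule: per role, both largest average exposure differences and any opposite call; the 4 largest per genotype, D3 and iR comparison; up to 5 calls per interaction; and 4 per other list, of which 1 gene is not reported here. Other members are described by role. The members and lists were chosen with earlier results of these data known. Whether same-numbered samples were paired was not known. Correlations of same-numbered deviations were over 0.1 for every number only for exposure in iR_KOA_D3 (0.115 to 0.168). Single values in other comparisons ran from -0.325 to 0.306.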

Additional observations from a re-analysis of the deposited data

Results flagged for a closer look

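A difference between backgrounds that passed its own test (limma, adjusted over all tested genes) is given for the 9 genes that the naming rule, with its limit of 5 per interaction, selected. D3 by genotype alone called 51 of the 53, where 17.5% of all tested genes were called. No explanation of them was tested.

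The D3 difference of unexposed iR cells was more negative in the knockout than in the wild type, with interactions on the log2(FPKM + 1) scale of -1.05 for DTL, -1.003 for EXO1, -0.999 for ORC6, -0.98 for MCM2 and -0.94 for CDC6. The exposure difference of CDC6 in iR D3 cells differed between genotypes by -0.24. That test called 1 of the 53, where 2.38% of all tested genes were called. The call was lost under quantile normalization (limma, adjusted p = 0.0517) and when some single libraries were left out.

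In the knockout, the exposure difference with iR minus that without iR was -0.45 for SLBP, 0.35 for CHAF1A, 0.34 for POLD3 and 0.22 for CDC6. The exposure difference with D3 minus that without D3 was -0.46 for CHAF1A, 0.35 for ORC6, 0.24 for PCNA and 0.23 for SLBP. As described above, some alternative runs lost the POLD3 and CDC6 calls with iR and the ORC6, PCNA and SLBP calls with D3.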

How the results depend on the processing

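No single-gene difference picked by the naming rule reversed its direction under any alternative run. Most of these calls stayed on their side of the threshold (2619 of the comparisons of single genes with an alternative), with 96 calls lost and 10 gained. This does not cover the other genes described above. The cause of each change below was not tested.

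With a pseudocount of 0.1 or 0.01 the median D3 difference of the 53 genes was -1.23 or -1.25 in the knockout and -0.54 or -0.55 in the wild type, D3 by genotype -0.67 under both, and knockout against wild type with D3 -0.95 or -0.98. Exposure by D3 in the knockout then called 8 or 9 of the 53 genes and exposure by genotype with D3 called 3 under both. With a pseudocount of 1 these counts were 4 and 1, where 4.14% and 2.38% of all tested genes were called. Shares over all tested genes are not given for the pseudocount, filter, compared-group, leave-out and replicate-block runs. Median-of-ratios scaling gave medians of -0.98 and -0.46 for D3 in the knockout and the wild type, -0.52 for D3 by genotype, -0.22 and -0.77 for knockout against wild type without and with D3, and -0.23 and -0.22 for exposure in iR_KOA and iR_WTA_D3, with 3 calls for exposure by genotype with D3 (172 lower and 125 higher over all tested genes). Quantile normalization gave -0.999, -0.45, -0.52, -0.21 and -0.79 for the same 5 medians, -0.28 and -0.20 for exposure in iR_KOA_D3 and iR_WTA, and 0 calls for exposure by genotype with D3. Rescaling without mitochondrially encoded genes gave -1.01 for D3 in the knockout, -0.54 for D3 by genotype, -0.81 for knockout against wild type with D3, -0.23 for exposure in iR_KOA and -0.20 for iR. A minimum of 5 FPKM gave -1.12 for D3 in the knockout. With no filter, or with only the compared groups fitted, exposure by D3 in the knockout called 2 genes, and with only the compared groups exposure by genotype with D3 called 0. Leaving out 1 library at a time gave medians of -1.11 to -1.04 for D3 in the knockout and -0.89 to -0.81 for knockout against wild type with D3. It gave counts of 27 to 41 for exposure in iR_WTA, 2 to 5 for exposure by iR, 2 to 6 for exposure by D3 in the knockout, 0 to 1 for exposure by D3 in the wild type and 0 to 2 for exposure by genotype with D3. For the last 2 and for exposure by iR and by D3 in the knockout, many single libraries of the groups compared moved the count. Calls over all tested genes also shifted in 3 interactions on rescaling without mitochondrially encoded genes, to 260 lower and 389 higher (413 and 201 as deposited) for exposure by iR, 682 and 121 (290 and 210) for exposure by D3 in the knockout, and 177 and 110 (138 and 150) for exposure by genotype with D3.

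With the replicate number as a block the average exposure comparison called 52 of the 53 genes and exposure in iR_KOA_D3 called 43. No other count moved by more than 1.5 times. Whether the numbers pair the samples was not known in any comparison. The limits are 3 libraries per group, an FPKM table whose composition the scaling alternatives shift, and low counts for CCNE2, with 33 reads in its least covered library.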
